A study of Homo sapiens with 12 samples.

Results

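Collagen, laminin and integrin genes were followed in Daoy cells, an established human medulloblastoma (MB) line, after culture in rat astrocyte conditioned media (ACM) or in DMEM. A gene was taken as a member by its symbol: every COL gene with an A chain number, every LAMA, LAMB and LAMC gene, and every integrin alpha or beta subunit gene. This rule found 82 genes among the 27708 on the array, of which 44 encode collagen chains, 12 laminin chains and 26 integrin subunits (18 alpha and 8 beta). The 56 collagen and laminin chains are called matrix subunits below. Of the 82 genes, 76 had a probe bright enough to be tested (40 collagens, 11 laminins and 25 integrins), and 66 were well above background on all 12 arrays. COL11A1, COL28A1 and LAMB4 were not well above background on any array, and COL4A3, COL17A1 and ITGAD were on 3, 6 and 2 arrays, so these 6 were not tested.

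Daoy cells spent 1 passage (P1) or 3 (P3), each lasting 48 h, in ACM, the supernatant of hippocampal astrocytes from newborn rats, or in full DMEM with 10% fetal bovine serum. Astrocytes themselves were kept in DMEM with the same serum, so serum was part of both media. The 4 groups were thus P1 ACM, P1 DMEM, P3 ACM and P3 DMEM, with 3 independent experiments each and 1 array per sample. The arrays report human transcripts of 1 cell line from whole cultures, in which fewer cells that express a gene and less RNA per cell cannot be told apart. The study asked how astrocyte-secreted factors change MB gene expression, adhesion to fibronectin and invasion through Matrigel, a basement membrane extract.

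Collagens are trimers of alpha chains: types I, III and V form fibrils, type IV forms the network of basement membranes, type VI forms beaded filaments, and FACIT collagens such as type XII lie on the surface of fibrils. Laminins are trimers of 1 alpha, 1 beta and 1 gamma chain that organise basement membranes. Integrins are alpha and beta pairs in the cell membrane that bind these proteins, or the RGD sequence of fibronectin and vitronectin, and link them to actin. In the brain, laminins and type IV collagen lie mainly in the basement membranes of vessels and of the pial surface.

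A level is given as the log2 signal of a gene's brightest probe minus the 75th percentile of its array, so that 0 is the 75th percentile and 1 unit is a doubling. Levels of different genes come from different probes and are not read as relative amounts of RNA. They were pooled only as group medians on each array and their difference, as bins of signal and as summed marker signals. A difference is ACM minus DMEM on this log2 scale, and a gene was called where it exceeded 2-fold with an unadjusted p of 0.05 or less by limma, the thresholds of the study. After Benjamini-Hochberg adjustment none (0) of the 25275 genes tested by limma in the fit of all 12 arrays reached an adjusted p of 0.05 in any comparison. The smallest adjusted p was 0.0954 at P1 and 0.195 at P3, while at P1 5839 genes were higher and 230 lower in ACM at an unadjusted p of 0.05 or less.

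These zero counts depended on 1 array and on which arrays shared the estimate of the spread. Without P3 ACM replicate 1, limma gave 5185 genes with an adjusted p of 0.05 or less at P1, 4125 for the difference between passages, 5877 between passages in ACM, and 0 at P3 and between passages in DMEM. At P1, 11 members were then among them, all higher in ACM: COL10A1, COL19A1, COL22A1, COL24A1, COL25A1, COL4A4, COL5A3, COL6A5, COL6A6, ITGA8 and ITGAL. The smallest limma adjusted p was 0.000146, that of ITGA8. The probes of ITGA8, COL6A6 and COL22A1 were bright enough to be tested only through P1 ACM, where they were high. Their p-values at P1 are therefore not independent of that choice. A fit of the 6 P1 arrays alone gave 4849 genes and 9 members, the same list without COL25A1 and ITGAL, and the methods' t-test gave 2095 genes and 5 members. With any other single array left out there were at most 2 genes in a comparison and no (0) member. Without slide 2, where P3 ACM and P1 DMEM are 1 array each, there were 1892 genes at P1 and 3825 at P3, with 2 and 11 members.

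Slides were inferred from the scan date in the file headers: the 4 arrays that share a scan date are called a slide here. No slide name was read. All of P1 ACM lay on slide 1, where it was joined by the first P3 ACM replicate. P3 ACM replicates 2 and 3 were on slide 2 beside P1 DMEM replicates 1 and 2, and on slide 3 the last P1 DMEM replicate accompanied all of P3 DMEM. No slide therefore held both media at one passage, and the effect of slide cannot be told apart from that of medium within a passage. A fit with slide as a block compares media only across passages. Its P1 difference adds P1 ACM minus P3 ACM on slide 1 to P3 ACM minus P1 DMEM on slide 2. Its P3 difference adds that slide 2 value to P1 DMEM minus P3 DMEM on slide 3. On slide 1 P3 ACM is 1 array, and on slide 3 P1 DMEM is 1 array. The share of probes well above background was 74.3% to 80.3% on slide 2 and 88.1% to 94.6% on the other slides. A second deposited table of log2 values names its 12 columns by sample, but each column ranked as the scanner file of another sample. For 8 of the 12 columns that sample was of the other medium, and for 2 it was of the same group. Every direction by medium below rests on the labels of the scanner files.

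Matrix subunits and their receptors were first compared as groups. At P1 the median difference between ACM and DMEM was 0.27 over the 51 tested matrix subunits and 0.18 over the 25 integrins, beside 0.15 over all genes tested. Of the matrix subunits, 39 of 51 had a positive difference, and of the integrins 16 of 25. At P3 the medians were −0.06 for matrix subunits (25 of 51 positive) and 0.13 for integrins (15 of 25 positive), beside 0.00 over all genes. Quantile normalization brought the median of all genes at P1 to 0.00, that of the matrix subunits to 0.12 and that of the integrins to 0.06, and at P3 it gave 0.00 and 0.12. With slide as a block the P1 medians were −0.04 and −0.08.

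On single arrays, the median level of the matrix subunits minus that of the integrins was −0.82, −0.84 and −0.48 in P1 ACM and −0.67, −1.0 and −0.64 in P1 DMEM. In P3 ACM it was −0.86, −1.56 and −0.23, and in P3 DMEM −0.51, −0.02 and 0.03. The P1 groups overlapped, and so did the P3 groups, with 2 of the 3 P3 DMEM arrays above every other array. These medians are a description over chosen genes and carry no test.

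**Figure D1:**
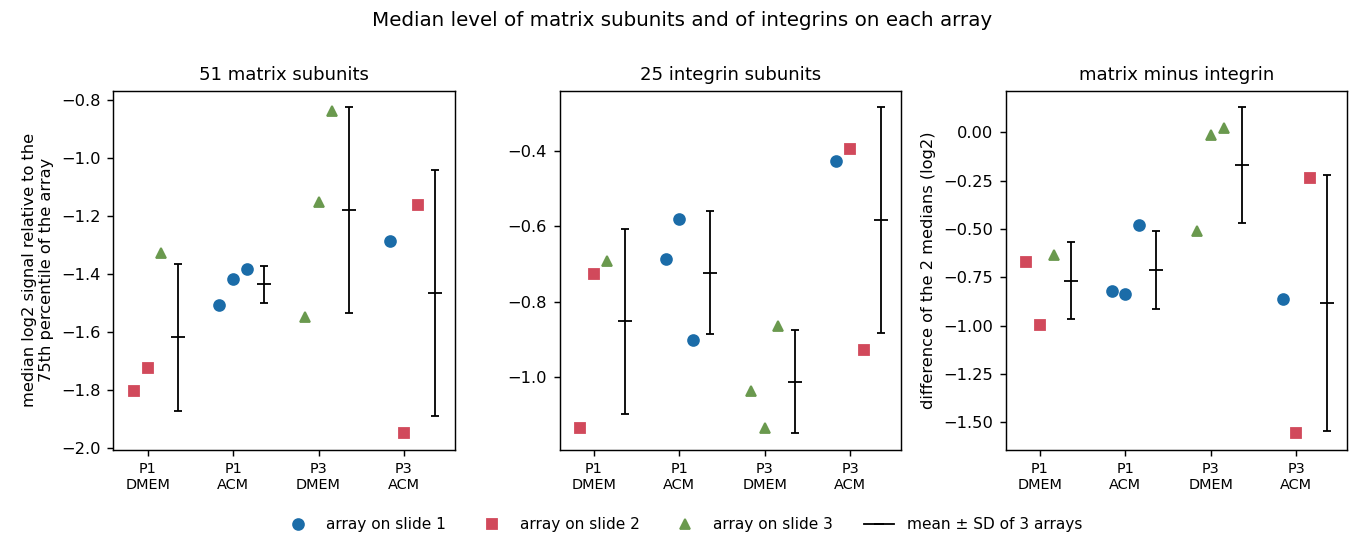
Median log2 signal of 51 matrix subunits and 25 integrin subunits, and the difference of both medians, on each of the 12 arrays, with colour and symbol for the slide and bars for the mean ± SD of 3 arrays. Groups overlapped within each passage, and the matrix minus integrin value ranged from −1.56 on P3 ACM replicate 2 to 0.03 on P3 DMEM replicate 3.

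By class, network collagens and laminin-binding integrins had medians of opposite sign at P3. The 8 tested network collagens had a median difference of −0.44 at P3, with 6 of 8 negative, against 0.06 at P1. The 4 laminin-binding integrins (ITGA3, ITGA6, ITGA7 and ITGB4) had a median of 0.52 at P3 and 0.21 at P1, and all 4 were positive at both passages. The 4 collagen-binding alpha subunits (ITGA1, ITGA2, ITGA10 and ITGA11) had medians of −0.18 at P1, with none (0) of 4 positive, and −0.21 at P3, with 1 of 4 positive. Fibrillar collagens had medians of 0.13 at P1 and −0.14 at P3, FACIT collagens 0.50 and −0.25, and beaded filament and anchoring collagens 0.40 and 0.38. With P3 ACM replicate 1 left out, all 8 network collagens were negative at P3. In the second deposited table, under its own labels, 6 of these 8 were positive at P3.

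**Figure D2:**
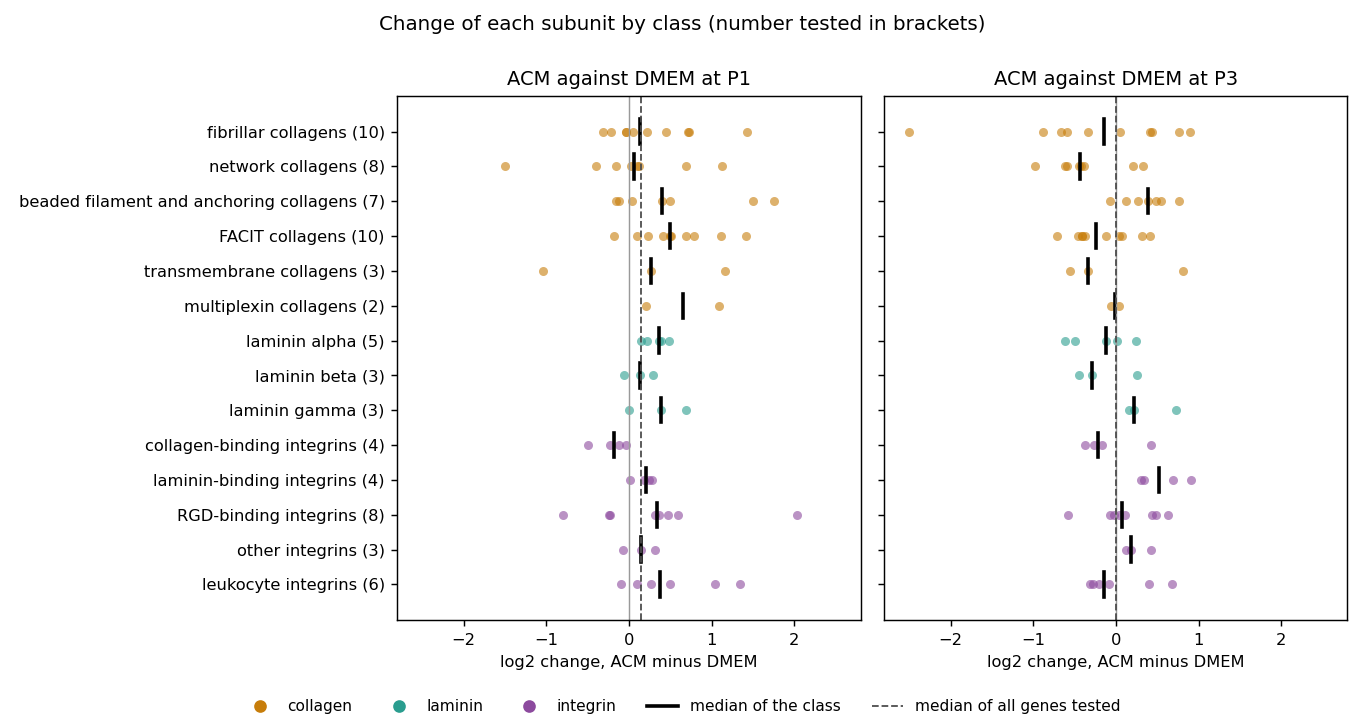
Log2 difference between ACM and DMEM for each tested subunit (points) by class at P1 (left) and P3 (right), with the class median as a thick bar and the median of all genes tested as a dashed line. At P3 network collagens had a median of −0.44 and laminin-binding integrins one of 0.52.

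At P1, 9 members were called higher in ACM: the collagen genes COL6A5, COL6A6, COL5A3, COL22A1, COL25A1 and COL4A4, and the integrin genes ITGA8, ITGAL and ITGAX. This was 11.8% of the 76 members, beside 13.5% of all genes, so the share of members did not exceed that of the genome. Matrix subunits (6 of 51, 11.8%) and integrins (3 of 25, 12%) had like shares. COL13A1 and COL8A1 were called lower, 2.63% of the members beside 0.0989% of all genes. ACM and DMEM arrays did not overlap for 17 members that were higher in ACM (22.4%, beside 30.7% of all genes) and for 1 that was lower, COL13A1 (1.32%, beside 5.39%).

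ITGA8, an alpha subunit that binds RGD ligands, was at −5.43, −5.50 and −5.47 on the P1 ACM arrays and at −7.58, −7.33 and −7.58 on the P1 DMEM arrays. The probe was well above background on all 3 ACM arrays and on none (0) of the DMEM arrays, so only a bound can be given: ITGA8 was at least 1.77-fold higher in ACM (limma unadjusted p = 0.00525, adjusted p = 0.103). The same held for COL6A6, at −5.84, −5.59 and −5.82 against −7.56, −7.01 and −7.19 and at least 1.44-fold higher (adjusted p = 0.104). For COL22A1, a collagen of tissue junctions, the bound was 1.09-fold (adjusted p = 0.103). These 3 probes passed the brightness filter only through P1 ACM, the group where they were high. Their p-values in comparisons with P1 ACM are therefore not independent of that choice. A bound compares the ACM mean with the dimmest signal that the software called well above background on each DMEM array, or with the probe's own signal where that was higher.

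COL6A5, a chain of type VI collagen, was at −5.06, −4.91 and −4.61 in P1 ACM and at −6.85, −6.56 and −6.45 in P1 DMEM, a difference of 1.76 ± 0.64 (SE, n = 3 per group, limma unadjusted p = 0.0186). COL5A3, a minor fibrillar chain, was at −4.32, −5.07 and −5.55 against −6.43, −6.26 and −6.53, a difference of 1.43 ± 0.35 (limma unadjusted p = 0.00197). Both probes were well above background on only 1 of the 3 P1 DMEM arrays, and the arrays of the 2 media did not overlap. COL25A1, a transmembrane collagen, differed by 1.16, and COL4A4, a chain of the type IV collagen network found in kidney and inner ear, by 1.12. The leukocyte subunits ITGAL and ITGAX differed by 1.34 and 1.04, with the arrays of ITGAX overlapping.

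All 9 of these genes lay in the dimmest of 3 equal bins of the genes tested, ordered by mean signal. In that bin the difference was positive for 20 of 20 members, with a median of 1.07, and for 7697 of 8425 genes in all, with a median of 0.84. In the middle bin the medians were 0.23 for 27 members and 0.14 for all genes, and in the brightest bin 0.00 for 29 members and −0.08 for all genes. At P3 the medians of all genes by bin were 0.04, 0.08 and −0.09. The part of signal strength and of slide in the P1 calls was not tested.

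**Figure D3:**
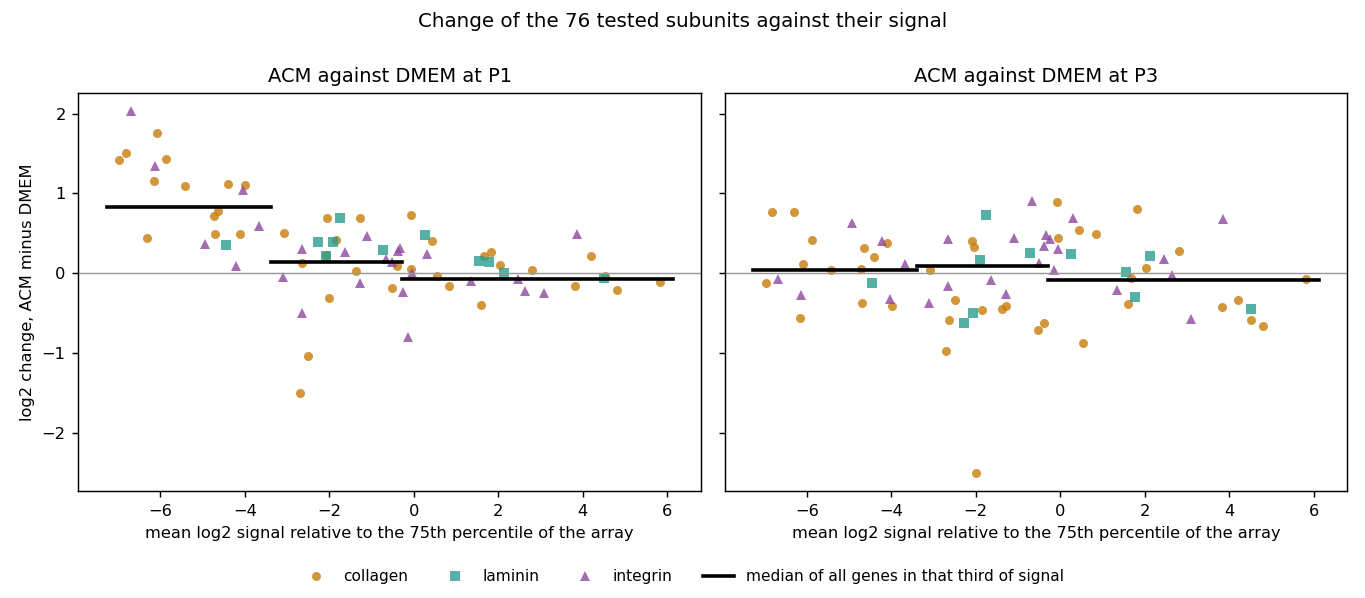
Log2 difference between ACM and DMEM of the 76 tested subunits against their mean log2 signal at P1 (left) and P3 (right), with black bars for the median of all genes in each of 3 bins of signal. At P1 the dimmest bin of all genes had a median of 0.84 and all 20 members there were positive, while at P3 the 3 medians lay between −0.09 and 0.08.

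The P1 calls varied with single arrays and with scaling. Without P1 DMEM replicate 1 there were 5 called members and without P1 ACM replicate 1 there were 7, in place of 11. ITGA8, COL6A6, COL5A3 and COL22A1 were called with each of the 12 arrays left out. After quantile normalization 2 members were called, COL13A1 and COL8A1, and with slide as a block 2 were called, COL13A1 and COL1A2. With slide as a block the differences of ITGA8 and COL6A5 turned to −0.77 and −0.96. Both values rest in part on P3 ACM replicate 1, the only P3 ACM array on slide 1. That of ITGA8 also rests on P1 DMEM arrays where its probe was not well above background.

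COL13A1, a transmembrane collagen of cell adhesion sites, was at −3.06, −2.46 and −3.05 in P1 ACM and at −1.18, −1.86 and −2.43 in P1 DMEM, so that the groups were separate by a narrow gap. The difference was −1.04 ± 0.43 (SE, n = 3 per group, limma unadjusted p = 0.0335, adjusted p = 0.175), and it was −0.72 without P1 DMEM replicate 1. Within slide 2, the mean of P3 ACM minus that of P1 DMEM was −1.59, and these arrays did not overlap. COL8A1, a short-chain network collagen named here after its values were seen, was at −4.53, −2.73 and −2.66 against −2.69, −1.40 and −1.33. Its difference of −1.5 (limma unadjusted p = 0.0164) rested on overlapping arrays and was −0.89 without P1 ACM replicate 1. Both probes were well above background on all 12 arrays.

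At P3, 1 member was called, COL3A1, lower in ACM (1.32% of the members, beside 0.819% of all genes). None (0) was called higher, beside 0.914% of all genes. At a limma unadjusted p of 0.05 or less, 5 members had a positive and 7 a negative difference, beside 973 and 866 of 25275 genes. Among the 5 was COL11A2 (0.89), of which another kept probe differed by −0.58 (limma unadjusted p = 0.0342 in the fit of all probes). COL3A1, the chain of fibrillar type III collagen, was at −4.99, −3.40 and −0.66 in P3 ACM and at −0.98, 0.04 and −0.60 in P3 DMEM. P3 ACM replicate 3 lay among the DMEM arrays. The difference was −2.50 ± 1.07 (SE, n = 3 per group, limma unadjusted p = 0.0396, adjusted p = 0.702), and in P1 ACM the 3 arrays already spread from −3.99 to −0.22. COL3A1 was no longer called without P3 ACM replicate 1 (−1.51) or replicate 2, nor without any 1 of the 3 P3 DMEM arrays, and it was called with 7 of the 12 arrays left out in turn.

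Smaller differences at P3 left the arrays of the 2 media apart in 16 members. For 7 members the 3 ACM arrays all lay below the 3 DMEM arrays (9.21% of the members, beside 5.02% of all genes), and all 7 were collagens: COL1A1, COL5A1 and COL5A2 of the fibrils, COL12A1 on their surface, and COL4A1, COL4A2 and COL4A5 of the basement membrane. For 9 members the ACM arrays all lay above (11.8%, beside 4.76%), and 5 of these were integrins: ITGA3, ITGA7, ITGA9, ITGAM and ITGB3. The other 4 were COL23A1, COL6A2, COL6A3 and COL9A2. Expressed by group, this was 7 of 51 matrix subunits (13.7%) and none (0) of 25 integrins below, and 4 of 51 (7.84%) and 5 of 25 (20.0%) above. None (0) of these 16 genes exceeded 2-fold through its brightest probe. A second probe of COL6A2, well above background on all 12 arrays, differed by 1.15 at P3 (limma unadjusted p = 0.00355 in the fit of all probes), past both thresholds, against 0.54 through the brightest. Those outside the fixed list of common subunits were named after their values were seen.

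COL5A1, the main chain of type V collagen, which starts fibril assembly, was at 4.2, 4.33 and 4.30 in P3 ACM and at 4.82, 4.94 and 4.85 in P3 DMEM. The difference was −0.59 ± 0.15 (SE, n = 3 per group, limma unadjusted p = 0.0028, adjusted p = 0.612), the smallest p of a matrix subunit at P3. A second COL5A1 probe, well above background on all 12 arrays, differed by −0.30 (limma unadjusted p = 0.232 in the fit of all probes). Through the brightest COL5A1 probe the P1 difference was −0.04 (4.57, 4.27 and 4.53 in ACM, 4.65, 4.30 and 4.53 in DMEM). The difference between passages was −0.55 (limma unadjusted p = 0.0271). Its partner COL5A2 was at −0.45, 0.33 and 0.63 in P3 ACM and at 0.77, 1.27 and 1.11 in P3 DMEM, a difference of −0.88 (limma unadjusted p = 0.0181). The lowest COL5A2 array was P3 ACM replicate 1, and without it the difference was −0.57.

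COL1A1, a chain of type I collagen, was at 4.06, 4.73 and 4.63 in P3 ACM and at 5.12, 5.06 and 5.22 in P3 DMEM, a difference of −0.66 (limma unadjusted p = 0.0134). Here too P3 ACM replicate 1 was lowest, and the difference was −0.45 without it. The other type I chain, COL1A2, had overlapping arrays, at 3.39, 4.13 and 4.82 against 3.86, 5.02 and 4.46, and a difference of −0.34. COL12A1 was at −0.98, −0.76 and −0.92 in P3 ACM and at −0.15, −0.04 and −0.31 in P3 DMEM, a difference of −0.72 (limma unadjusted p = 0.0132) that stayed between −0.79 and −0.65 with each array left out. A second kept COL12A1 probe differed from the first in sign at P1 and shared its sign at P3. Within slide 2 the 2 P3 ACM arrays lay below the 2 P1 DMEM arrays for COL1A1 (−0.16 on the mean) and COL12A1 (−0.50), while those of COL5A1 and COL5A2 overlapped. With slide as a block the P3 differences were −0.49 for COL5A1, −0.28 for COL5A2, −0.26 for COL1A1 and −0.92 for COL12A1.

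**Figure D4:**
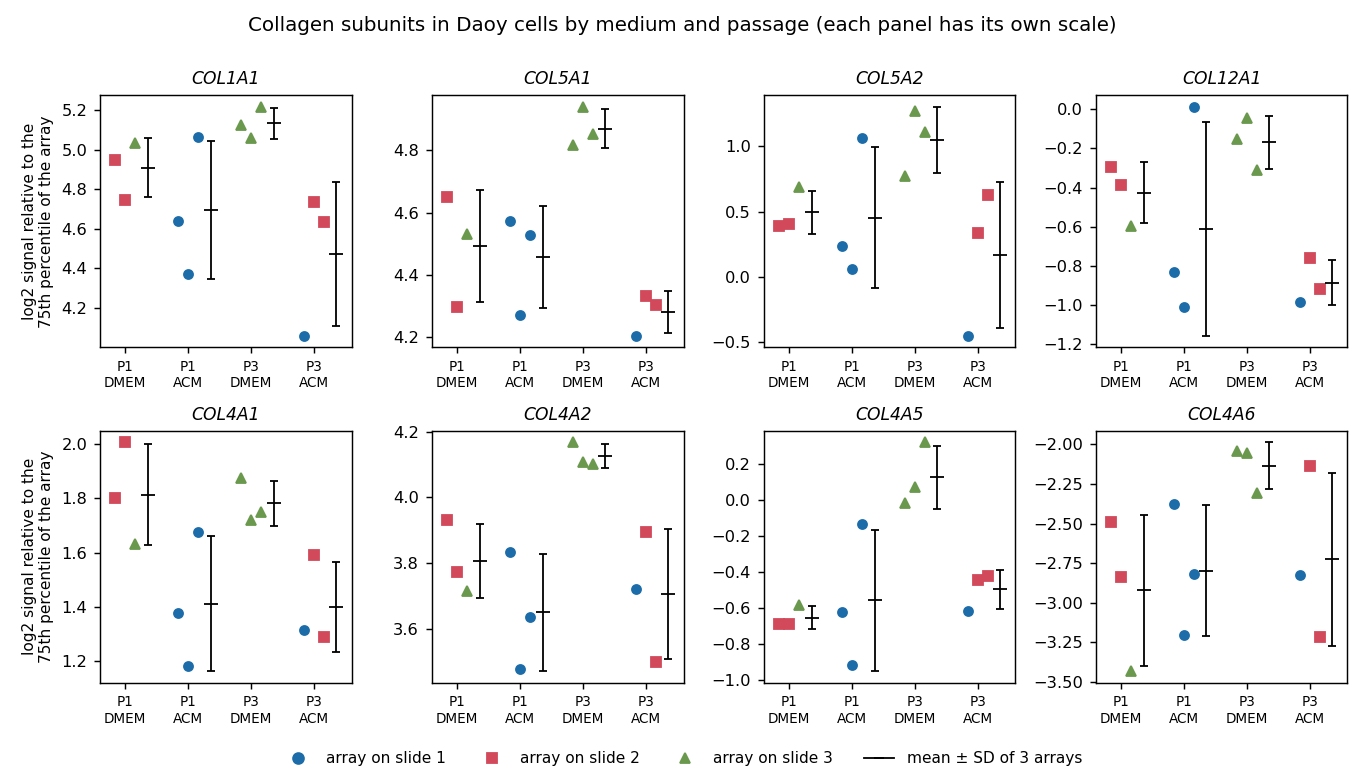
Level (log2 signal minus the array's 75th percentile) of 8 collagen genes on each array, with colour and symbol for the slide and bars for the mean ± SD of 3 arrays. For all genes but COL4A6 the 3 P3 ACM arrays lay below the 3 P3 DMEM arrays, while the P1 groups overlapped.

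Type IV collagen genes lie as head-to-head pairs, in which 2 genes are read away from a shared stretch. COL4A1 and COL4A2 encode the chains of the most widespread type IV trimer. COL4A1 was at 1.32, 1.59 and 1.29 in P3 ACM and at 1.88, 1.72 and 1.75 in P3 DMEM, a difference of −0.38 (limma unadjusted p = 0.0544). At P1 its difference was −0.40 (unadjusted p = 0.0454), with P1 ACM at 1.38, 1.18 and 1.68 and P1 DMEM at 1.80, 2.01 and 1.63, so that the arrays overlapped. COL4A2 was at 3.72, 3.89 and 3.50 in P3 ACM and at 4.17, 4.11 and 4.10 in P3 DMEM, a difference of −0.42 (limma unadjusted p = 0.024), against −0.16 at P1.

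COL4A5 and COL4A6, the pair on chromosome X, differed by −0.62 and −0.59 at P3 and by 0.10 and 0.12 at P1. COL4A5 was at −0.62, −0.44 and −0.42 in P3 ACM and at −0.01, 0.07 and 0.32 in P3 DMEM (limma unadjusted p = 0.0102), with a difference between passages of −0.72 (unadjusted p = 0.028). Within slide 2, both P3 ACM arrays lay above both P1 DMEM arrays, by 0.26 on the mean. COL4A6 was at −2.82, −2.14 and −3.22 against −2.04, −2.06 and −2.31, and its arrays overlapped (limma unadjusted p = 0.0933). In DMEM alone both were higher at P3 than at P1 on all arrays, by 0.78 each. Of the remaining pair, COL4A3 was not tested and COL4A4 differed by 0.20 at P3.

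The sequences between and before these start sites are shown because each pair shares them. They were taken from the RefSeq promoter table of GRCh38.p14, in which 58 of the 82 members had an entry. Capitals mark CCAAT or its complement ATTGG, and GGGCGG or its complement CCGCCC, letters that are read by NF-Y and by Sp1-like factors. The start sites of COL4A1 and COL4A2 have 126 bases between them (chr13:110307158-110307283, read on the plus strand toward COL4A2), with 1 CCAAT and 1 GGGCGG match. For COL4A5 the 250 bases before its start (chrX:108439588-108439837, plus strand) and for COL4A6 the 250 bases before its nearer start (chrX:108439459-108439708, minus strand) are shown, and 379 bases lie between these 2 starts.
COL4A1/COL4A2: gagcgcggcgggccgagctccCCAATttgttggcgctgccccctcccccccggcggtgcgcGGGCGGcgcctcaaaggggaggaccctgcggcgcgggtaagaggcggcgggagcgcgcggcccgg
COL4A5: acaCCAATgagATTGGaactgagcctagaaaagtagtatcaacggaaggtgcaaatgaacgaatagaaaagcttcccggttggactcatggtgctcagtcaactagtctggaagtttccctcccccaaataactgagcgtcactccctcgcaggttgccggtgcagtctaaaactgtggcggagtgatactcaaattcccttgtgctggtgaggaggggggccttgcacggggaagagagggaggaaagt
COL4A6: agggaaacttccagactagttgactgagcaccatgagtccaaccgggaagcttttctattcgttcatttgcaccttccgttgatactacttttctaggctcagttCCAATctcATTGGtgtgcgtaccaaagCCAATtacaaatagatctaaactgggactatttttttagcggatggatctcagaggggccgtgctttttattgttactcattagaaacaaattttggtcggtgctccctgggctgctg

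The COL4A1/COL4A2 stretch was 80.2% G or C, against 51.2% and 44% for the bases before COL4A5 and COL4A6. CCAAT on either strand matched 2 times before COL4A5 and 3 times before COL4A6, and both matches before COL4A5 are the same bases as 2 of those before COL4A6, read from the other strand. GGGCGG matched in neither. Among 35116 promoters in the table, 32.0% held CCAAT and 42.6% held GGGCGG on either strand within 250 bases before the start, and 21.1% and 34.6% within 126 bases. These matches are a description of letters.

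Integrins with ACM arrays above the DMEM arrays at P3 were led by ITGA3, the alpha subunit of a laminin receptor. ITGA3 was at −0.23, −0.35 and −0.01 in P3 ACM and at −1.04, −1.42 and −0.87 in P3 DMEM. The difference was 0.91 ± 0.25 (SE, n = 3 per group, limma unadjusted p = 0.00372, adjusted p = 0.612), or 1.88-fold, just under the threshold of the study. At P1 the arrays overlapped (−0.55, −0.23 and −0.96 in ACM, −1.14, −0.73 and −0.40 in DMEM), with a difference of 0.18. The difference between passages was 0.73 (unadjusted p = 0.0605). ITGA3 was past both thresholds at P3 with slide as a block (1.45, limma unadjusted p = 0.00849) and as a random block (1.1), and within slide 2 both P3 ACM arrays lay above both P1 DMEM arrays, by 0.75 on the mean. The value with slide as a block adds to this the slide 3 gap between P3 DMEM and the only P1 DMEM array there. In the second deposited table, under its own labels, ITGA3 was at −0.23.

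ITGA6, which pairs with ITGB1 or ITGB4 as a laminin receptor, was at 1.03, 0.29 and 0.06 in P3 ACM and at 0.02, −0.79 and 0.08 in P3 DMEM. Its difference of 0.69 (limma unadjusted p = 0.0465) came with overlapping arrays and was 0.40 without P3 ACM replicate 1. ITGA7 was at −0.12, −0.09 and −0.19 against −0.71, −0.22 and −0.48, a difference of 0.34 (limma unadjusted p = 0.073), and at P1 it was 0.28. ITGB4, the partner of ITGA6 in hemidesmosomes, had overlapping arrays at both passages, with differences of 0.30 at P3 and 0.01 at P1. Within ACM it was higher at P3 than at P1 on all arrays, by 0.65 (limma unadjusted p = 0.0153).

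The subunits ITGA5, ITGB1, ITGAV and ITGB3, which form receptors of fibronectin and vitronectin, were not called at either passage. ITGA8, which also binds fibronectin, was called at P1 as given above. ITGA5, whose pair with ITGB1 is the main fibronectin receptor, was at 0.06, 0.26 and −0.50 in P1 ACM and at −0.79, −0.44 and 0.13 in P1 DMEM, a difference of 0.31 (limma unadjusted p = 0.304). At P3 its difference was 0.48 (limma unadjusted p = 0.124), with overlapping arrays. ITGB1, the beta subunit shared by most of these receptors, differed by −0.07 at P1 and 0.18 at P3, and ITGAV by −0.23 and −0.03. ITGB3 was at −0.44, −1.11 and −1.21 in P3 ACM and at −1.45, −1.33 and −1.30 in P3 DMEM, a difference of 0.44 (limma unadjusted p = 0.209) that was 0.20 without P3 ACM replicate 1. With slide as a block ITGA5 and ITGB3 were called at P3, at 1.13 and 1.12. The ligand itself, fibronectin (FN1, named after its values were seen), differed by 0.03 at P1 and −0.18 at P3.

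Of the other RGD-binding subunits, ITGB5 differed by −0.24 at P1 and −0.58 at P3, and ITGB8, which with ITGAV activates latent TGF-beta, by −0.80 (limma unadjusted p = 0.0604) and 0.04. P1 DMEM lay above P3 DMEM on every array for ITGB8, while the P1 ACM and P1 DMEM arrays overlapped. ITGA2, a collagen receptor subunit, differed by −0.23 and 0.43. Each of these 3 genes had overlapping ACM and DMEM arrays at both passages.

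**Figure D5:**
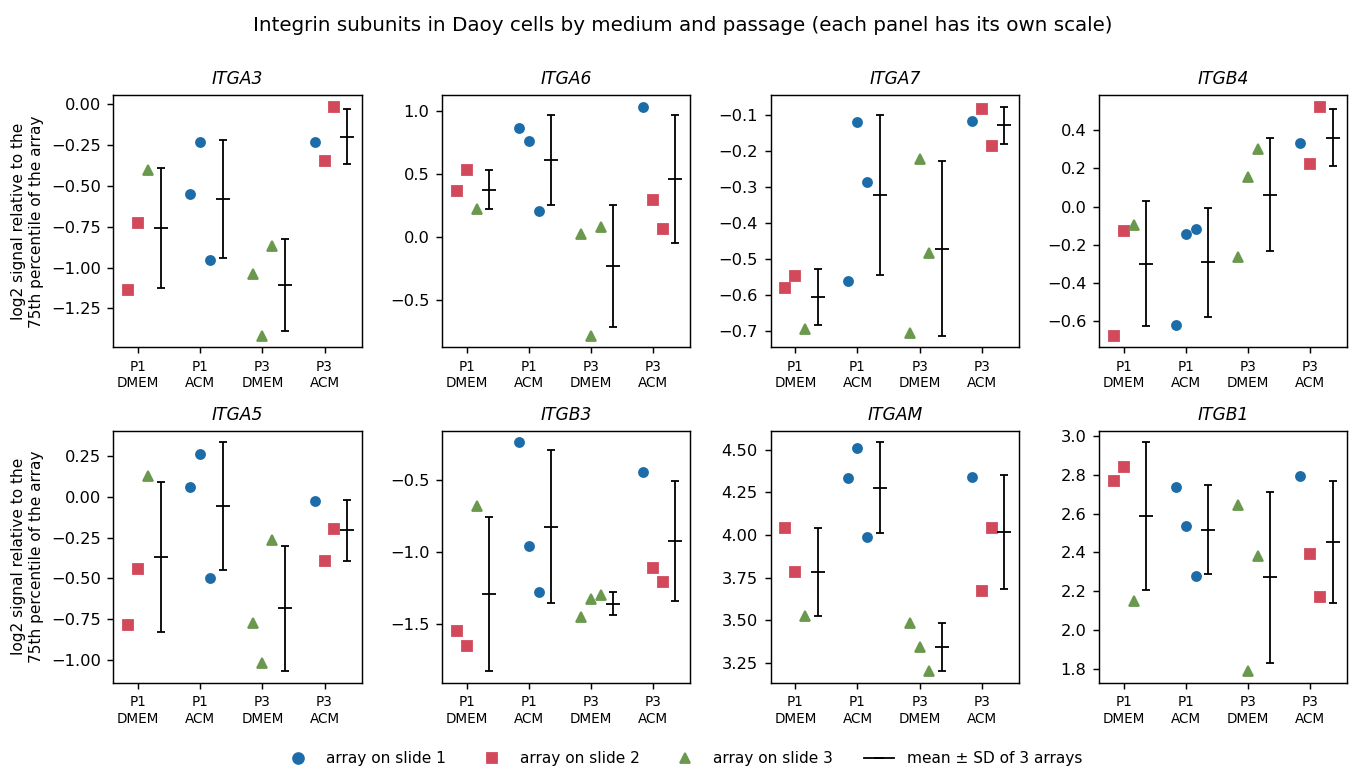
Level (log2 signal minus the array's 75th percentile) of 8 integrin genes on each array, with colour and symbol for the slide and bars for the mean ± SD of 3 arrays. The 3 P3 ACM arrays lay above the 3 P3 DMEM arrays for ITGA3, ITGA7, ITGB3 and ITGAM, and overlapped them for ITGA6, ITGB4, ITGA5 and ITGB1.

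Leukocyte integrins, the receptors by which white blood cells bind vessels and other cells, had a median difference of 0.38 at P1 and −0.15 at P3 over the 6 tested. ITGAL and ITGAX, called higher in ACM at P1, differed by −0.27 and −0.32 at P3, while ITGAM had a positive difference at both passages. ITGAM was at 4.33, 4.51 and 3.99 in P1 ACM and at 4.04, 3.78 and 3.53 in P1 DMEM (0.50, limma unadjusted p = 0.0457), and at 4.34, 3.67 and 4.04 in P3 ACM against 3.48, 3.34 and 3.20 in P3 DMEM (0.68, limma unadjusted p = 0.0106). In the second deposited table ITGAM was called at P3 with the opposite sign, −1.11, and with slide as a block its P3 difference in the scanner files was 0.13. Its beta partner ITGB2 differed by 0.09 and 0.40. Of 9 leukocyte and microglia markers 8 were measured, 7 of them well above background on all arrays and none (0) on no array. Their summed linear signal, in units of the 75th percentile, reached 1.88 to 2.79 in P1 ACM against 1.52 to 1.97 in P1 DMEM. At P3 it was 1.64 to 2.78 in ACM against 1.35 to 1.66 in DMEM. PTPRC (CD45), the pan-leukocyte marker, differed by 0.08 at P1 and 0.75 at P3, where its ACM arrays all lay above the DMEM arrays. The part of other cells in the integrin values was not tested.

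Markers of the cells themselves and of the source of the medium were also read. NES, VIM and SOX2, genes of neural progenitors, were well above background on all 12 arrays, with differences between −0.18 and 0.07 at P1. VIM, which encodes vimentin, differed by −0.53 at P3 with separate arrays. The astrocyte marker GFAP was well above background on 7 arrays and was not tested. The summed signal of the 7 measured astrocyte markers of 8 was 3.51 to 5.51 in P1 ACM against 4.06 to 5.47 in P1 DMEM, and at P3 it was 3.31 to 5.56 against 3.96 to 4.67. The 5 endothelial markers, of a cell type rich in type IV collagen, summed to 1.57 to 1.77 against 1.19 to 1.34 at P1 and to 1.5 to 1.78 against 1.12 to 1.68 at P3. The 4 platelet markers summed to 0.204 to 0.256 against 0.122 to 0.164 at P1 and to 0.118 to 0.224 against 0.130 to 0.144 at P3. Of the tested markers, 2 of 6 astrocyte, 2 of 5 endothelial, 2 of 4 epithelial and 2 of 4 platelet markers were called higher in ACM at P1, beside 13.5% of all genes. In the dimmest of the 3 bins of signal 3060 of 8425 genes were called higher at P1, against 314 in the middle and 40 in the brightest bin. Only 2 of 4 epithelial and 2 of 4 platelet markers were well above background on all arrays. The part of signal strength in these marker calls was not tested. Of 8 leukocyte and microglia markers, CX3CR1 was called higher at P1 and CD68 at P3 (1.22). The astrocyte marker AQP4 was called lower in ACM at both passages (−1.37 and −1.94), and of the endothelial markers PECAM1 was called higher at P3 as well.

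Laminin chains had no called member between media at either passage. The medians of the 11 tested were 0.29 at P1, with 10 of 11 positive, and 0.01 at P3, with 6 of 11 positive. LAMB1 and LAMC1, the commonest beta and gamma chains, differed by −0.06 and 0.00 at P1 and by −0.45 (limma unadjusted p = 0.0781) and 0.21 at P3. LAMB1 was at 4.24, 4.38 and 4.73 in P3 ACM and at 4.53, 5.39 and 4.76 in P3 DMEM, and the arrays overlapped. LAMA4, an alpha chain of vessels, differed by 0.15 and 0.01, LAMA5 by 0.36 and −0.12, and LAMB2 by 0.14 and −0.29. Of the commonest collagens not yet described, COL6A1 differed by −0.12 and −0.07, COL6A2 by 0.40 and 0.54, and COL18A1, the source of endostatin, by 0.21 and −0.06.

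The passages were then compared within each medium. In DMEM 1 member was called between P3 and P1, LAMA2, higher at P3 (1.32% of members, beside 1.14% of all genes), and none (0) was called lower, beside 0.582%. LAMA2, the laminin alpha chain of muscle and nerve, was at −1.55, −1.15 and −2.17 in P3 DMEM and at −2.18, −3.16 and −3.05 in P1 DMEM, a narrowly separate pair of groups. The difference was 1.18 ± 0.39 (SE, n = 3 per group, limma unadjusted p = 0.0118, adjusted p = 0.571), and it was not called without P1 DMEM replicate 2 or without P3 DMEM replicate 2. There were 4 calls without P3 DMEM replicate 1, and 2 without P3 DMEM replicate 3 or without P1 DMEM replicate 1 or 3. In the same direction LAMB2 differed by 0.73 (limma unadjusted p = 0.0135), LAMB1 by 0.51 (limma unadjusted p = 0.048) and COL5A1 by 0.38 (limma unadjusted p = 0.0322), with separate arrays for each. Within slide 3, which holds all 3 P3 DMEM arrays and 1 P1 DMEM array, the differences were 1.43, 0.65, 0.45 and 0.34. In DMEM 7 members were higher and 3 lower at P3 at a limma unadjusted p of 0.05 or less, beside 1302 and 752 of 25275 genes. All 3 lower members were collagens, and the lowest difference of a collagen was −0.85.

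In ACM 4 members were called lower at P3 than at P1, COL22A1, COL25A1, COL6A5 and ITGA8 (5.26% of members, beside 7.47% of all genes), and none (0) higher, beside 0.0356%. All 4 were dim genes called higher in ACM at P1. P3 ACM replicate 1 lay apart from the other P3 ACM arrays for them: ITGA8 was at −5.08 there and at −7.64 and −8.05 on replicates 2 and 3. This array shares slide 1 with the P1 ACM arrays, on which the mean of P1 ACM minus this array was −0.38. Without P3 ACM replicate 1 there were 9 called members, and without P3 ACM replicate 2 or 3 there were none (0). Without P1 ACM replicate 1 or 2 there was 1, and without P1 ACM replicate 3 there were 2.

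For the difference between passages, that is the P3 difference minus the P1 difference, 4 members were called lower: COL25A1 (−1.72), ITGAX (−1.36), ITGA8 and COL22A1. The last 2 were well above background on 5 of 12 arrays and on none (0) of the P1 DMEM arrays, so no size is given for them. This was 5.26% of members, beside 6.81% of all genes, and none (0) was called higher, beside 0.0514%. COL9A1, a FACIT collagen of cartilage, had the second smallest p (−0.87, limma unadjusted p = 0.0165), with 0.49 at P1 and −0.38 at P3. Without P3 ACM replicate 1 there were 11 calls, and without P3 ACM replicate 2 or P1 DMEM replicate 2 there were 2. Without P3 ACM replicate 3 there were 7. After quantile normalization none (0) of the members was called, and the cause was not tested.

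Genes that act with these proteins were read from fixed lists. Of 26 genes of collagen maturation, 1 was called at P1, ADAMTS2, the protease that trims procollagen ends (1.38, limma unadjusted p = 0.0219), and none (0) at P3. Its probe was well above background on 2 of 3 P1 DMEM arrays. The P1 difference of ADAMTS2 was 0.67 after quantile normalization and −0.42 with slide as a block. Of all genes, 13.5% were called higher and 0.0989% lower at P1, and 0.914% and 0.819% at P3. Of 28 tested other matrix ligands, 14 receptors outside the integrins and 28 integrin adaptors, none (0) was called at either passage. The medians at P1 were 0.06, 0.25, −0.18 and −0.02, and at P3 0.04, 0.15, −0.09 and 0.01. At P3, 2 folding factors of procollagen were named after their values were seen. P4HB, a subunit of prolyl 4-hydroxylase, differed by −0.56 (limma unadjusted p = 0.00429) with all ACM arrays below the DMEM arrays. The chaperone SERPINH1 differed by −0.75 (limma unadjusted p = 0.0315) with overlapping arrays. After quantile normalization these 2 were at −0.22 and −0.45, and with slide as a block at −0.35 and 0.04. P4HB was already lower in ACM at P1, with a difference of −0.26 (limma unadjusted p = 0.127) and all ACM arrays below the DMEM arrays. Of the 26 collagen maturation genes, 14 had a positive and 12 a negative difference at P3. Arrays were also separate for LOXL3, lower in ACM (−0.71), and for PLOD3, higher (0.22). The talins, which open integrins from inside the cell, differed by 0.03 (TLN1) and 0.39 (TLN2) at P1 and by 0.18 and 0.37 at P3.

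Several probes were kept for 17 members. Their signs were the same in 15 genes at P1, with COL11A2 and COL12A1 as exceptions, and in 12 genes at P3, with COL11A2, COL14A1, COL19A1, COL8A2 and LAMC3 as exceptions. With 3 arrays per group an exact permutation test of 1 gene cannot give a p below 0.10, and the number of arrays limits the precision of each value.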

How the data were processed

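Total RNA of 12 Daoy samples was hybridised to 1-colour Agilent arrays. The deposited scanner files hold processed signal intensity per spot, background-corrected by Agilent Feature Extraction 11.0.1.1 per the file headers. The authors also deposited a table of normalized log2 values for the same arrays, whose scale beyond log2 and whose sample labels are unsettled, since its columns rank as other samples' scanner files, and it served as an alternative only. Control spots and outlier spots were left out, spots of a probe were averaged, and each array's 75th percentile was subtracted on the log2 scale. A probe was kept where some group had it well above background on all 3 arrays (31078 of 34127). One limma fit (limma 3.58.1, R 4.3.3) of 4 group means over all 12 arrays gave differences, standard errors and p-values, adjusted by Benjamini-Hochberg, and a gene was read through its brightest kept probe. The fit was tested on simulated data. Symbols came from RefSeq accessions. Tables were made with Python 3.11.15 and pandas 2.3.3.

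Genes were named where called with separate arrays (at most 10 in each direction per passage), where among the 5 smallest p-values for the difference between passages, or where on a list of common subunits. Leukocyte integrins were described as a group. The members and lists were chosen with earlier results of these data known. Same-numbered samples deviated together with r = 0.43, 0.19 and 0.27 at P1 and r = 0.23, −0.19 and 0.06 at P3, so the numbers were not taken to pair the samples. The labels tie each sample to an independent experiment. Alternatives covered normalization, filter, variance model, slide, replicate block, probe choice and each array left out. Leaving out slide 2, and slide as a block after quantile normalization, were added after seeing the data.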

Additional observations from a re-analysis of the deposited data

How the results depend on the processing

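Calls of members depended mostly on scaling, slide and single arrays, and the cause was not tested. In place of 11 calls at P1, 1 at P3, 4 for the difference between passages, 1 between passages in DMEM and 4 in ACM, quantile normalization gave 2, 1, 0, 1 and 0, and normexp with an offset of 50 before it gave 2, 1, 0, 0 and 0, with COL25A1 at −0.022 at P1. No filter on dim probes gave 3 at P3 and 2 in DMEM, and keeping only probes well above background on all 12 arrays gave 4, 1, 1, 1 and 0. Fitting only the arrays compared gave 2 in DMEM and 1 in ACM, and the methods' t-test gave 6 at P1, 0 at P3 and 0 in ACM. Slide as a block gave 2, 5, 2, 2 and 0, slide as a random block 2, 1, 0, 2 and 0, and slide as a block after quantile normalization 4, 4, 3, 2 and 1. Without the 4 arrays of slide 2 there were 5, 18, 2, 2 and 0, where P3 ACM and P1 DMEM are 1 array each, assumed to vary like the other groups. The second deposited table, under its own labels, gave 0, 4, 2, 0 and 0. Of its 24851 genes, 490 were called higher and 1028 lower at P3. Counts over all 25275 genes of the scanner files moved too. At P1, 3414 were called higher and 25 lower in the main fit, against 905 and 230 after quantile normalization and 155 and 376 with slide as a block. At P3 the main fit gave 231 and 207, quantile normalization 188 and 297, and slide as a block 388 and 295.

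With slide as a block the P1 medians were −0.036 for matrix subunits and −0.084 for integrins. In the second deposited table, under its own labels, the P1 median of matrix subunits was 0.010. The columns of that table rank as other samples' scanner files, 8 of the 12 from the other medium, so its values do not reflect normalization alone. Without slide 2 the P3 median of integrins was 0.52. At P1, slide as a block turned ITGA8 (−0.77), COL6A5 (−0.96), COL6A6 (−0.058), COL22A1 (−0.036), ITGAL (−0.50), COL25A1 (−0.039) and COL4A4 (−0.21), and after quantile normalization ITGA8 (−0.68), COL6A5 (−1.12), ITGAL (−0.12) and COL4A4 (−0.10). All of these values rest in part on P3 ACM replicate 1, the only P3 ACM array on slide 1. The second table turned COL6A5 (−0.041), ITGAL (−0.54), COL25A1 (−0.083), COL4A4 (−0.078), COL13A1 (0.28) and ITGAX (−0.30) at P1 and COL6A5 (−1.28) at P3. Without slide 2, ITGA8 (1.77), COL22A1 (1.02) and ITGAL (1.18) turned at P3.

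With each array left out, calls ranged from 5 to 12 at P1, 0 to 5 at P3, 2 to 11 for the difference between passages, 0 to 4 in DMEM and 0 to 9 in ACM. Without P3 ACM replicate 1, 4761 of all 25275 genes were called lower for the difference between passages, beside 1721 in the main fit. Between passages in ACM 4863 were called lower, beside 1889. At P3 there were 0 without P3 DMEM replicate 2, 5 without P3 ACM replicate 3, and 2 without either P3 DMEM replicate 1 or P3 ACM replicate 2. With the replicate number as a block there were 10, 1, 5, 1 and 3 calls, and ITGAL was no longer called at P1. A moderated variance with trend and the mean of a gene's probes kept every count within 1.5 times. Probes near background bound the dim genes, as given for ITGA8, COL6A6 and COL22A1.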
